A study of Homo sapiens with 10 samples.

Results

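The genes described here build the spindle midzone and carry out cytokinesis, the final separation of the daughter cells. They were chosen as 10 symbols, ANLN, ECT2, PRC1, RACGAP1, CIT, TPX2, NUSAP1, HMMR, ASPM and MKI67, and were looked up by symbol in the RNA-Seq and the Ribo-Seq table. Of the 10, 9 were found in both tables, among 11258 transcripts that the tables share, and ECT2 was not analysed here. All 9 passed the filter on low values, a level of 5 FPKM or more in some RNA-Seq library and in some Ribo-Seq library, as did 7015 transcripts in all. FPKM is the number of reads scaled to transcript length and to library size.

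BJ cells, human primary fibroblasts immortalised by expression of hTERT, were left untreated or were treated with nutlin-3a for 2, 4, 6 or 19 h. Nutlin-3a inhibits MDM2, the ubiquitin ligase that keeps p53 low. Each of these 5 groups was profiled by RNA-Seq of poly(A) RNA and by Ribo-Seq, which sequences the mRNA fragments covered by ribosomes. Each assay had 1 library per group, 10 libraries in all, so no difference has a replicate check and no test was possible. All groups came from a single cell line, and changes at all 4 times share the control library of their assay.

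When chromosomes have separated, antiparallel microtubules are bundled between them into the central spindle, or midzone. The midzone and the chromosomal passenger complex direct the small GTPase RhoA to assemble a contractile ring of actin and myosin II at the cell equator, and the ring draws the membrane in until abscission. Many of the genes involved are transcribed mainly in G2 and mitosis. Among the members, PRC1 bundles antiparallel microtubules and RACGAP1 is the GTPase-activating subunit of centralspindlin. ANLN encodes anillin, the scaffold of the contractile ring, and CIT encodes citron kinase, which acts at the midbody. TPX2 activates Aurora A and nucleates spindle microtubules, NUSAP1 and HMMR bind spindle microtubules, and ASPM acts at the spindle poles. MKI67 encodes Ki-67, which coats mitotic chromosomes and is the common marker of proliferating cells.

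RefSeq promoter windows, 250 bases before to 50 bases after a transcription start, were matched for 7 members and searched on both strands for motifs of cell-cycle promoters. The cell-cycle homology region (CHR), taken as TTTGAA or TTCGAA, is the element through which the DREAM and MuvB complexes act at many G2 and mitotic genes. A CHR match was present in 7 of 7 member windows, against 16.4% of all 35116 windows in the table. In 6 of the 7 a match began within 50 bases of the start on either side, against 5.01% of all windows, a distance that was not among the choices fixed beforehand. CCAAT, the binding motif of NF-Y, was present in 6 of 7, all but ANLN, against 34.6%. An E2F motif, taken as TTTGGCGC, TTTCGCGC, TTTGCCGC or TTTCCCGC, was found in 1 of 7, NUSAP1, against 3.31%. A match to these letters is a description of the sequence and does not show that a factor binds there. The 30 bases around the CHR match nearest to each start are printed because they hold what the 7 windows have in common. They are given 5′ to 3′ along the gene's strand, with the match in capitals, and TTCAAA is TTTGAA read from the other strand. Positions count from the start, where 1 is the first transcribed base, and coordinates are those of GRCh38.p14.
ANLN (chr7:36389830-36389859, plus strand, match at -20 to -15): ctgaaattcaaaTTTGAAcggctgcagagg
PRC1 (chr15:90994538-90994567, minus strand, match at -20 to -15): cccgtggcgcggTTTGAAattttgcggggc
HMMR (chr5:163460598-163460627, plus strand, match at -22 to -17): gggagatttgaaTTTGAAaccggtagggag
MKI67 (chr10:128126435-128126464, minus strand, match at -29 to -24): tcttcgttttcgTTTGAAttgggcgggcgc
ASPM (chr1:197146765-197146794, minus strand, match at -113 to -108): cggatgcaatcaTTCAAAtgaagcgccgcc
CIT (chr12:119877293-119877322, minus strand, match at 11 to 16): ccgttcctcgggTTCAAAcgcggcggcggg
NUSAP1 (chr15:41332882-41332911, plus strand, match at 14 to 19): tggcgccagggaTTTGAAccgcgctgacga
ANLN, HMMR, MKI67 and CIT each held a second match in the window, and in ANLN and HMMR it ended directly before the match shown. In MKI67 the last base of the match shown is, read along the gene, also the first base of a CCAAT motif on the other strand.

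The library totals behind the FPKM values, recovered from the spacing of the values, were 23845553 to 27554282 reads for RNA-Seq and 7744900 to 14460727 for Ribo-Seq. CDKN1A, the p53 target that encodes the cell-cycle inhibitor p21, went from 68.6 FPKM of RNA in the control to 1316 at 19 h, and MDM2 from 14.9 to 259. All 9 fibroblast markers examined had at least 1 FPKM in every RNA-Seq library, with summed levels from 8790 to 11330 FPKM. Of the markers of other cell types found in the table, CDH1, PTPRC, VWF, MLANA and PMEL were below 1 FPKM in every RNA-Seq library. KRT8, KRT18 and CD68 were above it, with 10.6 to 14.2, 230 to 315 and 61.4 to 86.4 FPKM. The summed epithelial markers ranged from 243 to 327 FPKM and the leukocyte markers from 61.5 to 86.6 FPKM. Their part in the results was not tested.

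RNA of all 9 members lay slightly below the control at 2 and 4 h, fell steeply between 4 and 6 h, and was lowest at 19 h in each of them. In the control the levels ranged from 18.7 FPKM (CIT) to 138 FPKM (ANLN), and at 19 h from 0.57 (HMMR) to 4.44 (TPX2). Per 1000000 RNA-Seq reads, the 9 members together took 3228 reads in the control and 2984, 2350, 474 and 88.4 reads at 2, 4, 6 and 19 h. In a bulk sample, fewer cells that express a gene and less RNA per cell cannot be told apart.

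**Figure D1:**
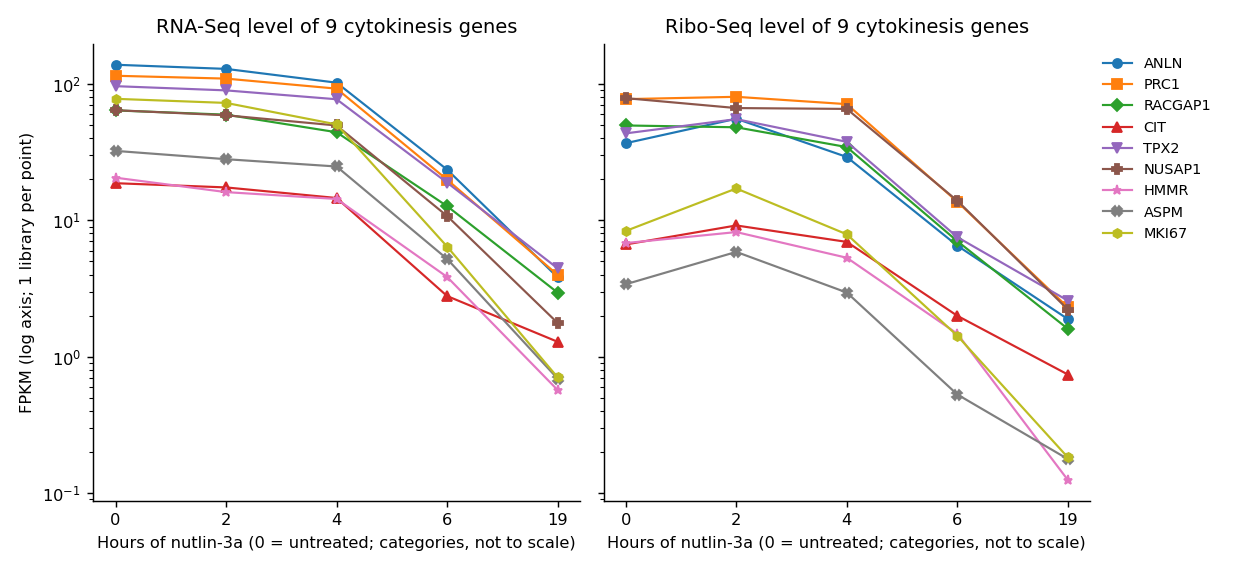
FPKM of the 9 members on a log axis in the 5 RNA-Seq libraries (left) and the 5 Ribo-Seq libraries (right) at 0, 2, 4, 6 and 19 h of nutlin-3a, with 1 point per library and hours drawn as evenly spaced categories. The lines run nearly flat to 4 h in RNA-Seq and drop at 6 and 19 h in both assays, and several Ribo-Seq lines peak at 2 h, MKI67 from 8.35 to 17.1 FPKM.

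Among the midzone genes, PRC1 RNA was 114 FPKM in the control and 109, 92.1, 19.8 and 3.98 FPKM at 2, 4, 6 and 19 h. RACGAP1 RNA was 63.8 FPKM in the control and 59.4, 44.1, 12.7 and 2.95 FPKM at the same times. For both genes each library was lower than the one before it in time. At 19 h PRC1 was 28.8-fold below the control, with a log2 change of -4.85 and a 95% interval from -5.01 to -4.69. RACGAP1 was 21.6-fold below it, with a log2 change of -4.43 (95% interval -4.62 to -4.25). These intervals are exact limits from the recovered reads, here 314 and 254 reads at 19 h, and cover counting error only.

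For the contractile ring scaffold ANLN, RNA was 138 FPKM in the control and then 129, 102, 23.5 and 3.82 FPKM. CIT, the midbody kinase, had 18.7 FPKM in the control and then 17.4, 14.6, 2.78 and 1.29 FPKM. Both were lower in each successive library, but CIT had the smallest total fall of the members. CIT was 14.5-fold below the control at 19 h (log2 change -3.86, 95% interval -4.04 to -3.69) and ANLN 36.1-fold (log2 change -5.17, 95% interval -5.31 to -5.04). The counting intervals of these genes do not overlap. CIT had reached 71.2% of its log2 fall by 6 h, whereas the other 8 members had reached 46.7% (HMMR) to 53.1% (MKI67).

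For the spindle genes, TPX2 RNA was 96.0 FPKM in the control and 89.4, 77.0, 18.9 and 4.44 FPKM at 2, 4, 6 and 19 h. NUSAP1 RNA was 64.0, 58.8, 49.5, 10.7 and 1.77 FPKM over the 5 libraries. Both kept most of their RNA at 4 h, and both were lowest at 19 h. TPX2 was then 21.6-fold and NUSAP1 36.2-fold below the control, with log2 changes of -4.43 and -5.18. HMMR RNA was 20.5 FPKM in the control and 16.1, 14.3, 3.84 and 0.57 FPKM later, and ASPM RNA was 32.2 FPKM and then 28.0, 24.8, 5.21 and 0.691 FPKM. The last library of both was below 1 FPKM. Without the floor of 1 FPKM that was otherwise set on values before changes were taken, HMMR was 36.0-fold below the control (46 reads at 19 h) and ASPM 46.6-fold (196 reads).

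MKI67, the proliferation marker, had the largest fall in RNA among the members. Its level was 77.6 FPKM in the control and 72.4, 50.4, 6.41 and 0.706 FPKM at 2, 4, 6 and 19 h. At 6 h it was 12.1-fold below the control, where the other 8 members were between 5.03-fold (RACGAP1) and 6.71-fold (CIT) below it. Its log2 change at 6 h, -3.597 with a 95% interval from -3.66 to -3.53, was outside the counting intervals of all other members. At 19 h it was 110-fold below the control, with 233 of the 23448 control reads and a log2 change of -6.78 without the floor (95% interval -6.97 to -6.59).

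At the first times the changes were small and all in the same direction. RNA of all 9 members was below the control at 2 h, with log2 changes from -0.35 (HMMR) to -0.069 (PRC1) and a median of -0.10, and every counting interval excluded 0, as did those of 28.5% of all tested transcripts on the lower side. The median of all tested transcripts was -0.045, and 64.6% of them were below the control. At 4 h the members' median was -0.38, against -0.074 for all tested transcripts, and the values ran from -0.62 (MKI67) to -0.31 (PRC1), all 9 beyond the counting interval against 41.1% of all tested transcripts. No member was 2-fold lower in RNA at 2 h or at 4 h, where 0.0143% and 0.684% of all tested transcripts were. By 4 h the members had gone through 6.46% (PRC1) to 11.98% (RACGAP1) of their log2 fall at 19 h. The step from 4 to 6 h alone was -2.97 (MKI67) to -1.80 (RACGAP1) on the log2 scale.

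At the late times all 9 members were at least 2-fold lower in RNA, 9 of 9 at 6 h against 5.39% of all tested transcripts and 9 of 9 at 19 h against 7.1%. Past 8-fold at 6 h there was 1 member, MKI67, against 0.684% of the tested transcripts. At 19 h all 9 were past 8-fold, against 2.1%. The members' median log2 change was -2.55 at 6 h and -4.85 at 19 h, with -0.0024 and -0.067 for all tested transcripts. Ordered from the lowest by their RNA change at 19 h as deposited, without the floor, MKI67 was at place 3 of 7015, ASPM at 35, NUSAP1 at 46, ANLN at 47, HMMR at 48, PRC1 at 67, RACGAP1 at 84, TPX2 at 85 and CIT at 111. Adjacent members from ASPM to PRC1 in this order have overlapping 95% intervals, as do RACGAP1 and TPX2, whereas ASPM is resolved from ANLN and PRC1, and ANLN from PRC1. On floored values ASPM would stand above NUSAP1 and ANLN, and HMMR above TPX2.

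**Figure D2:**
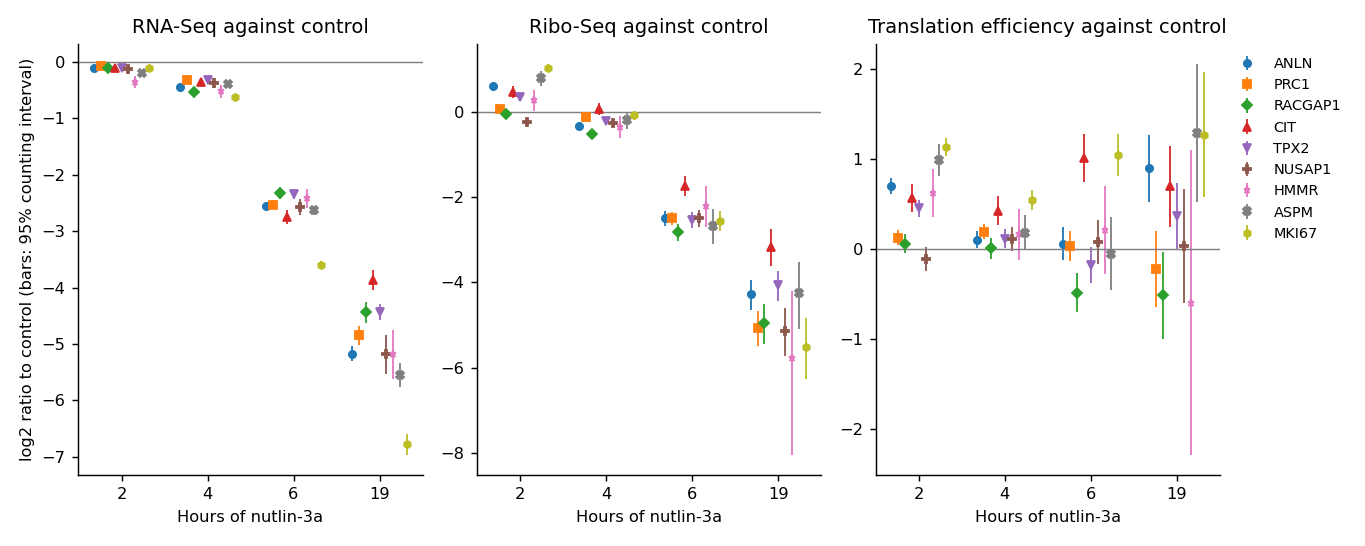
Log2 ratio to the control of the same assay for the 9 members at 2, 4, 6 and 19 h, in RNA-Seq, Ribo-Seq and translation efficiency, without a floor, with 95% counting intervals as bars (exact for the first 2 panels, normal for the last). RNA lies just below 0 at 2 and 4 h and between -6.78 and -3.86 at 19 h, Ribo-Seq lies on both sides of 0 at 2 h, and the bar of HMMR at 19 h is long because 3 Ribo-Seq reads remain.

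Ribosome density, the Ribo-Seq FPKM of a gene, went through the same late fall, but at 2 h it was higher than in the control for most members. Density of PRC1 was 77.2 FPKM in the control and 80.2, 70.9, 13.7 and 2.30 FPKM at 2, 4, 6 and 19 h. For RACGAP1 it was 49.5 FPKM and then 48.0, 34.4, 7.03 and 1.601 FPKM. These midzone genes changed little at 2 h, and the counting intervals of their 2 h changes included 0. ANLN had a density of 36.7 FPKM in the control and of 55.4, 29.1, 6.51 and 1.89 FPKM later. Density of CIT was 6.65, 9.16, 6.94, 2.00 and 0.741 FPKM over the same libraries. Both genes were highest at 2 h, and ANLN was below the control from 4 h on and CIT from 6 h on.

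TPX2 density was 43.3 FPKM in the control and 55.1, 37.5, 7.52 and 2.58 FPKM later. NUSAP1 density was 78.4 FPKM in the control, the highest of the members beside PRC1, and 66.4, 65.4, 13.9 and 2.22 FPKM later. NUSAP1 was the only member whose density at 2 h was below the control beyond its counting interval (log2 change -0.24, 95% interval -0.35 to -0.13), as were 26.5% of all tested transcripts. HMMR density was 6.81, 8.19, 5.31, 1.47 and 0.125 FPKM, and ASPM density 3.40, 5.86, 2.95, 0.529 and 0.178 FPKM. MKI67 density was 8.35 FPKM in the control and 17.1, 7.89, 1.43 and 0.183 FPKM later. For these 3 genes the 2 h library was the highest, and few reads remained at 19 h: 3 for HMMR, 15 for ASPM and 18 for MKI67.

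At 2 h the density of 6 members was above the control with a counting interval that excluded 0, against 31.5% of all tested transcripts. The log2 changes were 1.03 (MKI67), 0.79 (ASPM), 0.595 (ANLN), 0.46 (CIT), 0.35 (TPX2) and 0.27 (HMMR). ASPM passed the filter on low values in Ribo-Seq only through this 2 h library, with 5.86 FPKM, so its count here depends on that value. MKI67 was the 1 member that was at least 2-fold higher, against 2.12% of all tested transcripts. No member was 2-fold lower in density at 2 h, where 0.128% of all tested transcripts were, or at 4 h, where 0.527% were. By 4 h the density of 7 members was below the control beyond its counting interval, against 21.8% of all tested transcripts, and CIT and MKI67 were within it, with log2 changes of 0.062 and -0.082.

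At 6 h the density of 9 of 9 members was at least 2-fold lower, against 8.04% of all tested transcripts, and at 19 h again 9 of 9, against 14.9%. None was past 8-fold at 6 h, where 0.741% of tested transcripts were. At 19 h 6 of 9 were past 8-fold, against 2.11%. The other members, CIT, HMMR and ASPM, were held at the floor of 1 FPKM, and as deposited they were 8.97-fold, 54.4-fold and 19.1-fold below the control. For HMMR the 3 reads give a 95% interval from -8.05 to -4.20 around a log2 change of -5.77. The median log2 change of density was -2.50 at 6 h and -4.07 at 19 h, or -4.95 at 19 h without the floor, against -0.020 and -0.19 for all tested transcripts. Per 1000000 Ribo-Seq reads, they held 1079 reads in the control and 1360, 919, 191 and 45.3 reads at 2, 4, 6 and 19 h.

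Translation efficiency (TE), log2 of Ribo-Seq over RNA-Seq FPKM, differed widely among the members before treatment. The control TE was 0.29 for NUSAP1, -0.37 for RACGAP1, -0.57 for PRC1, -1.15 for TPX2, -1.49 for CIT, -1.59 for HMMR, -1.91 for ANLN, -3.22 for MKI67 and -3.25 for ASPM. Counting SEs were between 0.032 and 0.099, so MKI67 and ASPM were not resolved from each other, nor CIT from HMMR, while the other neighbours in this order differed by more than the joint counting interval. ASPM and MKI67 were at percentiles 0.157 and 0.185 of the 7015 tested transcripts, ANLN at 2.69 and HMMR at 5.76, and NUSAP1 at 75.01. These percentiles hold only among transcripts past the filter, which leaves out those low in every Ribo-Seq library. ASPM itself passed it only through its 2 h Ribo-Seq library.

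The order of control TE ran largely with transcript length, which was recovered together with the reads. NUSAP1 is the shortest member with 1629 nt, PRC1, HMMR, RACGAP1 and TPX2 have 3032, 3098, 3307 and 3605 nt, ANLN 4787, CIT 8708, ASPM 10887 and MKI67 12678 nt. The Spearman correlation of control TE with length was -0.82 over the 9 members and -0.75 over all tested transcripts, which share the libraries and the scaling. Ribo-Seq values are divided by the length of the whole transcript, since the same length fitted both tables. By the study's methods, only coding-sequence reads enter the Ribo-Seq levels, so these TE values may differ from that definition. For the control and the late nutlin-3a libraries, the study reports what share of all Ribo-Seq reads lay outside the coding sequence. That share is not known here for each gene, and a TE set across genes depends on how much of each transcript is untranslated. By the same account, a smaller share of reads was in frame with the codons in those libraries than in the other Ribo-Seq libraries it lists. How this bears on TE was not tested. Among the 179 tested transcripts of 8000 nt or longer, the control TE had a median of -1.70, with quartiles of -2.07 and -1.28. CIT lay inside those quartiles, and ASPM and MKI67 lay below them. ANLN, with -1.91, was below the quartiles of its own length class, 4000 to 6000 nt (-1.26 and -0.58), and so were HMMR and TPX2 in theirs, 3000 to 4000 nt (-0.92 and -0.26).

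Density at 2 h was also ordered by length, with a Spearman correlation of 0.93 over the members and 0.35 over all tested transcripts. ASPM passed the filter on low values only through its 2 h Ribo-Seq library, so its values here and the members' correlation depend on that library. Other tested transcripts may have passed in the same way, and how this bears on the class medians was not tested. Transcripts of at least 8000 nt had a median density change at 2 h of 0.42, with quartiles of 0.13 and 0.78. CIT, with 0.46, was near that median, and ASPM, with 0.79, was at the upper quartile. Transcripts of 1000 to 2000 nt, the class of NUSAP1, had a median of -0.079. With the linear trend over log2 length removed, the 2 h density changes were 0.68 for MKI67, 0.47 for ASPM, 0.46 for ANLN, 0.27 for TPX2, 0.23 for HMMR and 0.19 for CIT. Per doubling of length, the density change of all tested transcripts differed by 0.15 at 2 h, by -0.0011 at 4 h, by 0.12 at 6 h and by 0.17 at 19 h on the log2 scale, so the trend was present at 2, 6 and 19 h and not at 4 h. RNA at 2 h showed a smaller difference, with a median of 0.031 for transcripts of at least 8000 nt.

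**Figure D3:**
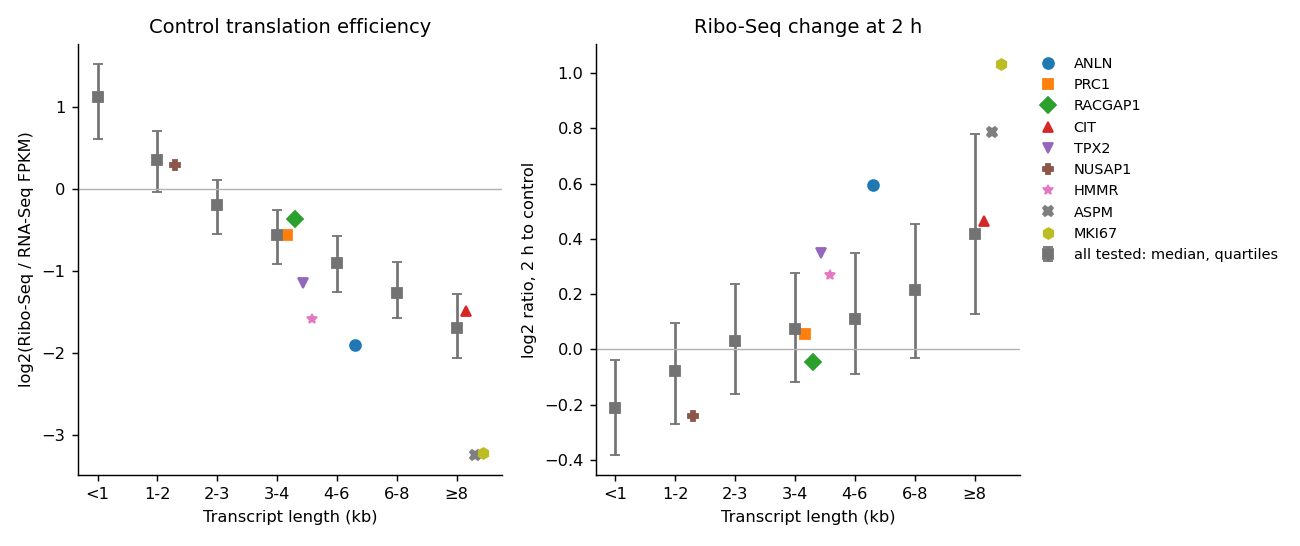
Control TE (left) and the log2 change of Ribo-Seq at 2 h (right) against transcript length in 7 classes, with the median and quartiles of all tested transcripts in each class as squares with bars and the 9 members as coloured symbols. Control TE falls and the 2 h change rises with length, and ASPM and MKI67 lie below the quartiles of the longest class on the left (-3.25 and -3.22). On the right MKI67 at 1.03 lies above the upper quartile of that class, and ASPM at 0.79 lies at it (0.78). ASPM passed the filter on low values only through its 2 h Ribo-Seq library.

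At 2 h the TE of 7 of 9 members was above the control beyond its counting interval, against 29.2% of all tested transcripts, and the intervals of RACGAP1 and NUSAP1 included 0. The 7 include ASPM, which passed the filter only through its 2 h Ribo-Seq library. The members' median TE changes at the 4 times were 0.57, 0.16, 0.079 and 0.89, against 0.045, 0.18, 0.0021 and -0.067 for all tested transcripts. For the 5 members with a mean of at least 20 FPKM in each assay the medians at 2 and 19 h were 0.13 and 0.036. MKI67 was the 1 member whose TE changed at least 2-fold at 2 h, with 1.13, against 1.2% of the tested transcripts in either direction. With the length trend removed its change was 0.89. None of the members passed 2-fold in TE at 4 h, where 0.998% of all transcripts did. At 6 h 2 of 9 did, CIT with 1.01 and MKI67 with 1.046, against 5.74%, and both were close to the 2-fold limit of 1. With the length trend removed, 0 of 9 were past it at 6 h, and likewise against the 2 h library and with a sliding cut-off. RACGAP1 went the other way at 6 h, with a TE change of -0.49 (95% interval -0.70 to -0.27).

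At 19 h 4 of 9 members were past 2-fold in TE on floored values, CIT, HMMR, ASPM and MKI67, against 6.14% of all tested transcripts, and in each of them at least 1 value lay below the floor. As deposited, 2 members were past 2-fold, ASPM with 1.29 (95% interval 0.52 to 2.06) and MKI67 with 1.27 (0.57 to 1.97). CIT was then at 0.69, and HMMR at -0.60 with an interval from -2.29 to 1.099, so its direction was not resolved at this depth. Without the floor the members' median TE change at 19 h was 0.37, with ANLN at 0.89 and RACGAP1 at -0.52. PRC1, NUSAP1 and TPX2 had intervals that included 0 at 19 h.

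Other genes of the same process were taken from 6 lists written from general knowledge. The lists were chosen with earlier results of these data known, so their counts are a description and no independent check. Each list was described by its counts on the RNA scale at 19 h beside the 7.1% of all tested transcripts that were at least 2-fold lower. Of the list of central spindle and midzone genes, 5 of 10 could be tested and 4 were at least 2-fold lower, with a median log2 change of -5.08. KIF20A, the kinesin that carries the passenger complex to the midzone, fell from 68.2 to 1.43 FPKM of RNA. PLK1, the kinase that recruits ECT2 to centralspindlin, fell from 41.1 to 1.052 FPKM. CLASP1, a microtubule plus-end protein, was at 14.5 FPKM in the control and 18.0 at 19 h, a log2 change of 0.32. All 4 genes of the chromosomal passenger complex were lower, with a median of -5.07. CDCA8 (borealin) fell from 48.6 to 0.389 FPKM, the kinase AURKB from 38.7 to 0.418, and the scaffold INCENP, with the smallest change, from 24.99 to 2.79.

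Counts of lower genes in the contractile ring and abscission lists were nearer to the share of all tested transcripts, 7.1% in RNA at 19 h. Of 17 tested contractile ring and RhoA genes 2 were at least 2-fold lower in RNA at 19 h, with a median of -0.36. DIAPH3, a formin, fell from 25.7 to 2.52 FPKM, and MYH10, a heavy chain of non-muscle myosin II, from 30.1 to 11.99 FPKM. SEPT9, a septin, was at 130 FPKM in the control and 127 at 19 h. In density 4 of the 17 were at least 2-fold lower, against 14.9% of all tested transcripts. Density changes over the 17 at 19 h ran from -3.52 (DIAPH3) to 1.27 on the log2 scale. MYH10 density was 4.79 FPKM in the control, 9.53 at 2 h and 4.21 at 19 h. Its log2 change at 19 h was -0.19, with a counting SE of 0.11. Of 15 tested abscission genes, most of them ESCRT subunits, 1 was at least 2-fold lower in RNA, against 7.1% of all tested transcripts. This was CEP55, which brings the ESCRT machinery to the midbody, from 52.4 to 0.597 FPKM of RNA. CHMP7, the next in order, changed by -0.36 on the log2 scale, and PDCD6IP (ALIX) by 0.031. The list's median was 0.031.

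Of 22 tested spindle assembly and pole genes, 19 were at least 2-fold lower in RNA, with a median of -2.73. The kinesins KIFC1 and KIF2C fell from 50.04 to 0.681 and from 42.8 to 0.56 FPKM, and NUMA1, which focuses microtubules at spindle poles, went from 50.6 to 56.6 FPKM. NUMA1 density was 25.8 FPKM in the control and 63.9, 33.3, 65.7 and 66.1 FPKM at 2, 4, 6 and 19 h. Its log2 change at 19 h was 1.36, in the direction opposite to the members, but a rise of like size was present at 2 h. Among 9 tested genes of the mitotic chromosome surface and Ki-67 partners, 3 were lower in RNA and 6 in density, with medians of -0.64 and -1.32. The shares of all tested transcripts were 7.1% in RNA and 14.9% in density. CDCA2, a protein phosphatase 1 subunit that acts on chromosomes with Ki-67, fell from 17.6 to 0.463 FPKM, and the condensin subunit SMC2 from 22.0 to 3.52 FPKM. PPP1CB, a catalytic subunit of the phosphatase, changed by 0.14 in RNA. At 6 h the counts in RNA were 4 of 5, 4 of 4, 2 of 17, 1 of 15, 15 of 22 and 3 of 9 over the lists in the order given here, against 5.39% of all tested transcripts.

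**Figure D4:**
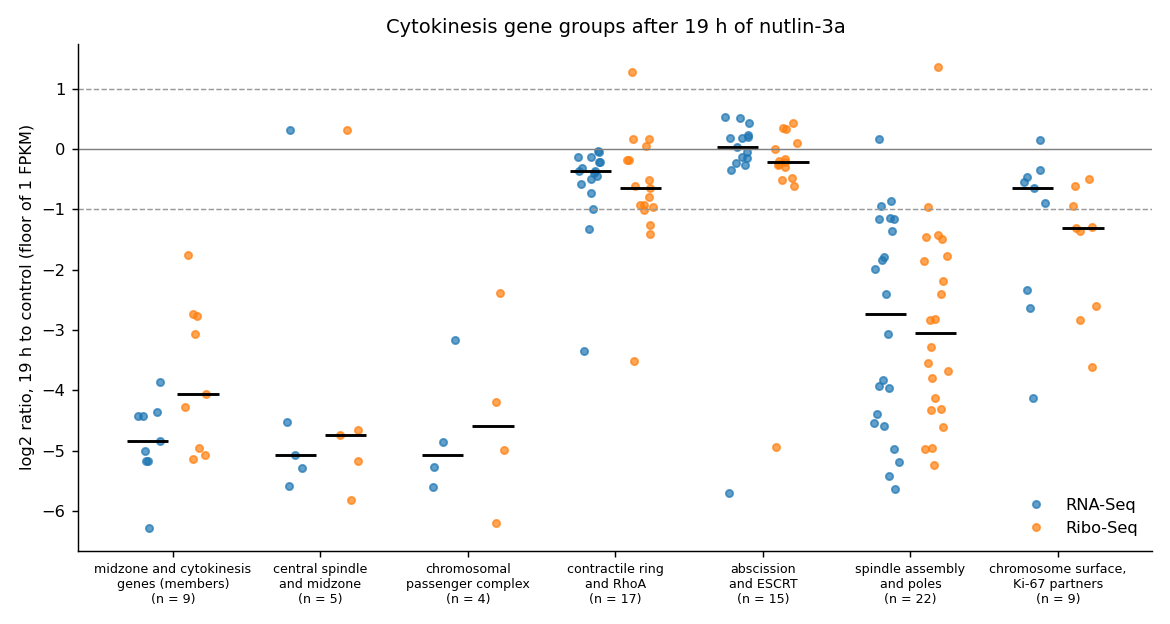
Log2 ratio of 19 h to control, with values floored at 1 FPKM, for the members and 6 lists of related genes, with 1 point per tested gene in RNA-Seq (blue) and Ribo-Seq (orange), a bar at each median and dashed lines at 2-fold. The members, the midzone list and the passenger complex lie mostly below -3 in RNA, whereas the medians of the contractile ring and abscission lists are -0.36 and 0.031.

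The 10 tested transcripts closest to the members' median profile were found by the Euclidean distance over 8 log2 changes, RNA and density at 4 times. With values floored at 1 FPKM these were FAM83D, BIRC5, BUB1, GTSE1, SPAG5, NEK2, ZWINT, CCNF, FEN1 and SHCBP1, at distances from 0.45 to 0.96. The members themselves were at 0.47 (TPX2) to 2.47 (ASPM) from that median, and the median of all other tested transcripts was 7.15. BIRC5 encodes survivin of the passenger complex and is on the lists above, as are SPAG5 and SHCBP1. Both orders depended on the floor. On values as deposited, an alternative chosen after seeing the data, 2 of these 10 transcripts, BUB1 and SHCBP1, were again among the closest 10. The member farthest from the median profile was then CIT at 2.37, followed by MKI67 at 2.13, and ASPM was at 0.93, since its floored distance came mainly from density held at 1 FPKM.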

How the data were processed

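RNA-Seq and Ribo-Seq of 10 libraries were used, 1 per group, grouped by the labels. The authors aligned reads with Bowtie to 1 isoform per gene of Ensembl release 65, kept unique hits and deposited FPKM values with 3 decimals. The labels name hg19. The table named for both assays was read as RNA-Seq: 21 of its 28 histone transcripts were below 1 FPKM in the control. Values can differ between sequencing runs, by the study's account, and the labels name no run. Library totals, lengths and reads were recovered for all 11258 shared transcripts. The step was tested on simulated data, for lengths only with transcripts above 1 FPKM in every library. Reads gave counting errors only, at a 95% level. Values were floored at 1 FPKM, log2 ratios were taken to the control, and past 2-fold was counted. Members and lists were chosen with earlier results of these data known. Genes named from a list had the 2 largest RNA falls or the smallest RNA change at 19 h. Septins were matched by gene ID. Python 3.11.15, numpy 2.4.6 and scipy 1.17.1 were used. Alternatives changed the floor, filter, baseline, scaling, cut-off and length trend.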

Additional observations from a re-analysis of the deposited data

Results flagged for a closer look

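Ribosome density of 6 members moved in opposite directions at 2 and 19 h, with counting intervals that excluded 0 at both times. At 2 h the log2 change against the control was 0.5951 for ANLN, 0.4626 for CIT, 0.3469 for TPX2, 0.2678 for HMMR, 0.7876 for ASPM and 1.034 for MKI67. At 19 h, as deposited, the changes of the same genes were -4.28, -3.17, -4.07, -5.77, -4.25 and -5.51. Each time rests on 1 library and shares the control, so no test of the difference was made. ASPM passed the filter on low values only through its 2 h Ribo-Seq library. Density changes at 2 h rose with transcript length across all tested transcripts, and the 2 h values were smaller but still positive with that trend removed, from 0.19 (CIT) to 0.68 (MKI67). Against the median of its own length class, 0.42, the change of CIT was little different.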

How the results depend on the processing

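Each group held 1 library, so leaving out a replicate was not possible. No paired analysis was possible because each group held 1 library. With a mean of at least 20 FPKM in each assay, 5 members remained, and 5 of 5 were at least 2-fold lower in RNA and in density at 6 and 19 h, while 0 passed 2-fold in TE at 2, 6 or 19 h. With a floor of 5 FPKM, 5 of 9 were lower in density at 6 h and 5 at 19 h, and 4 passed in TE at 6 h. Without a floor 2 passed in TE at 19 h. Against the 2 h library, 1 was lower in density at 4 h, 0 passed in TE at 6 h and 2 at 19 h. A sliding cut-off of 1.75 local SDs called 1 lower in RNA at 4 h, and 3 in TE at 2 h and 0 at 6 h. In density it called 6 of 9 lower at 6 h and 8 of 9 at 19 h. With the length trend removed, 0 passed in TE at 2 h and 0 at 6 h. The median TE change at 4 h reversed, to -0.34 against the 2 h library and -0.018 when centred on all tested transcripts. That at 19 h, 0.89, was 0.37 without a floor, 0.20 against the 2 h library, 1.49 with a floor of 5 FPKM and 0.036 at a mean of at least 20 FPKM. That at 2 h, 0.57, was 0.13 at that mean and 0.397 with the length trend removed. All other counts of members were within 1.5 times the value reported.

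The lists were rerun under the same alternatives, a choice made after seeing the data. At 19 h and a mean of at least 20 FPKM, the counts lower in RNA and density were 2 and 2 of 2 for the passenger complex, 0 and 0 of 9 for abscission, 8 and 8 of 9 for spindle assembly, and 0 and 3 of 6 for the Ki-67 partners. For the contractile ring list RNA was 0 of 11, and density was 1 of 17 with the sliding cut-off and 7 of 17 with the length trend removed. The sliding cut-off gave 3 of 9 Ki-67 partners in density. Depth limits TE at 19 h most, where HMMR had 3 and ASPM 15 Ribo-Seq reads.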
